A study of Mus musculus with 12 samples.

Results

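Isg15 conjugation and Ubd (FAT10) were examined in mouse brain through 6 genes, all found by symbol among the 21983 rows of the deposited count table: the modifiers Isg15 and Ubd, and the Isg15 enzymes Uba7, Ube2l6, Herc6 and Usp18. Brain RNA came from wild type C57BL/6 mice, 6 weeks old, in 3 groups of 4 libraries. Treated ECM mice had experimental cerebral malaria (ECM), a mouse model of the severe brain complication of malaria, and received the antimalarial artesunate. The labels give 4 days beside the treatment without saying what the 4 days count. ECM mice had the disease without artesunate, and control mice were normal. The labels name neither the parasite nor the time since infection, so time cannot be told apart from treatment, and nothing in them ties a library to its own animal. P-values therefore measure the spread between these samples, which may be technical.

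Isg15 is a ubiquitin-like protein with tandem ubiquitin-like domains. It is joined to other proteins by a chain of enzymes: Uba7 activates it, Ube2l6 carries it, and Herc6 is the main ligase for it in mice. Usp18 cuts it off again and also dampens signalling at the type I interferon receptor. Ubd is a second interferon-inducible modifier with tandem ubiquitin-like domains. It directs proteins to the proteasome, uses the activating enzyme Uba6 and the carrier Ube2z, and is known to be induced by interferon-gamma and tumour necrosis factor.

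On build mm10, Isg15 lies on chromosome 4 (156199424 to 156200818, minus strand) and Ubd on chromosome 17 (37193892 to 37196095, plus strand), and the longest annotated transcript of each has 2 exons. Usp18 lies on chromosome 6 (121245906 to 121270917) and Herc6 elsewhere on chromosome 6 (57581000 to 57664632). Uba7 lies on chromosome 9 (107975505 to 107984060) and Ube2l6 on chromosome 2 (84798828 to 84810335). All 6 are annotated as protein-coding. Near-identical or overlapping annotation touches some of them. The last 1003 bases of Uba7 lie inside the gene model Gm20661 on the same strand, which had 8 reads over all libraries. A transcript of another model matched Isg15 at 95.2% identity over 482 bases. Stretches of 260 to 498 bases of Ube2l6 matched 3 other counted genes, D10Wsu102e, Ift46 and Smchd1, at 90.6 to 96.5% identity. Usp18 overlaps Gm44148 on the opposite strand, and Herc6 overlaps Gm45193 on the same strand. How reads shared by such genes were counted is not stated.

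The stretches just before the start sites of the modifiers Isg15 and Ubd are shown, chosen after their levels were seen. Any link between these stretches and the levels was not tested. Both run 5′ to 3′ over the 250 bases before the RefSeq start site (build GRCm38.p6, chr4:156200819-156201068 on the minus strand for Isg15 and chr17:37193642-37193891 on the plus strand for Ubd). Capitals mark matches to GAAA repeated after a gap of 2 bases of any kind, a core of the interferon-stimulated response element, or to the NF-kB consensus.
Isg15: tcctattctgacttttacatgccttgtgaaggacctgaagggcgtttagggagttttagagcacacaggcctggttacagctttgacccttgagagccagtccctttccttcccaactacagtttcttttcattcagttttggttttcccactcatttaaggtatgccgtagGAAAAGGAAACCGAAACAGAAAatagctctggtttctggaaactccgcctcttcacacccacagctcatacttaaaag
Ubd: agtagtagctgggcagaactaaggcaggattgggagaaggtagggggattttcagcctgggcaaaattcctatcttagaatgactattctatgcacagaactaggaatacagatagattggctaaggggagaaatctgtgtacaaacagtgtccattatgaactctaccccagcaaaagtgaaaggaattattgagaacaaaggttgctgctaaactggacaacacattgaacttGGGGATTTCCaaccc
Searched on both strands, the paired GAAA was found 3 times in the Isg15 stretch, in overlapping copies between bases 78 and 57 before the start, and was found in 3.04% of 27025 promoters of the same length. The NF-kB consensus was found once before Ubd, from base 15 to base 6, and in 3.75% of these promoters. Neither motif was found in the Uba7, Ube2l6 or Herc6 stretch. No stretch was available for Usp18, which was not searched. TTCNNNGAA, the core of the gamma-activated site, was found in 7.18% of promoters and in none of the 5 examined. A match describes letters only, and the absence of one says nothing about the factor.

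Reads assigned to genes ran from 13342177 to 18886822 per library. Levels are CPM, read counts scaled to a common library total after TMM normalization, with means ± SD taken across 4 libraries each. The listed neuronal, astrocyte, oligodendrocyte and microglial markers were all detected in every group. The rank correlation of a library's deviations with the GC content of genes ran from -0.66 in control 4 to 0.54 in ECM 4. It was negative in control 4, control 3, ECM 2 and ECM 3, and 0.40 to 0.51 in all treated libraries.

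Against control brains, all 6 genes were higher in ECM, so that the modifiers, the conjugating enzymes and the deconjugating enzyme rose together (edgeR quasi-likelihood test, adjusted p below 0.05). Over all 14599 genes tested, 7.00% were called higher in this comparison, 3.27% lower and 10.3% either way. The groups did not overlap for 5 of the 6 genes, as for 14.5% of all genes. By point estimate or bound the modifiers rose most, but the rises of Isg15 and Usp18 were not told apart by the ratio test given below. In bulk brain RNA, a change in the number of cells of a type and a change in RNA per cell cannot be told apart.

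Isg15 read 27.6, 49.0, 23.7 and 47.1 CPM in ECM libraries 1 to 4, against 1.55, 1.25, 1.24 and 0.752 CPM in control libraries 1 to 4. The groups did not overlap, and ECM 2 and ECM 4 stood at about the same height above the other ECM libraries. The mean was 36.9 ± 13.0 CPM in ECM and 1.20 ± 0.329 CPM in controls (n = 4 each), a log2 fold change of 4.92 ± 0.32 (SE; adjusted p = 4.87e-07).

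Ubd had 48, 170, 70 and 178 reads in ECM libraries 1 to 4, against 0 reads in each of the 4 controls. These are 3.61, 13.2, 5.56 and 9.11 CPM in ECM, so ECM 2 and ECM 4 were again the highest. Set against a floor of 3 counts over the control group, Ubd was at least 168-fold higher in ECM (adjusted p = 0.000116). That bound covers counting error only.

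Usp18, the enzyme that removes Isg15, was the most even of the 6 in ECM, at 24.5, 28.6, 25.9 and 25.0 CPM, against 1.23, 1.13, 1.10 and 1.44 CPM in controls. Its log2 fold change was 4.40 ± 0.25 (adjusted p = 2.39e-07). The spread between libraries was small next to this 21.2-fold difference.

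The conjugating enzymes rose less than the modifier. Ube2l6, the carrier, read 24.4, 34.8, 25.4 and 23.5 CPM in ECM, against 4.26, 4.13, 3.58 and 5.67 CPM in controls (log2 fold change 2.61 ± 0.20, adjusted p = 2.27e-06). Herc6, the ligase, read 45.4, 36.5, 52.0 and 27.4 CPM in ECM, against 11.4, 7.45, 13.4 and 23.99 CPM in controls (log2 fold change 1.52 ± 0.31, adjusted p = 0.00624). For Herc6 the lowest ECM library, ECM 4, was close to the highest control, control 4.

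Uba7, the activating enzyme, was the member whose groups overlapped. It read 7.75, 2.09, 5.40 and 9.21 CPM in ECM, against 1.33, 2.07, 2.85 and 0.615 CPM in controls (log2 fold change 1.84 ± 0.46, adjusted p = 0.0200). ECM 2 lay inside the control range. The call was lost without ECM 1, ECM 4 or control 1 (adjusted p 0.0511, 0.05998 and 0.0632) and in a fit of these 8 libraries alone (adjusted p = 0.0793).

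**Figure D1:**
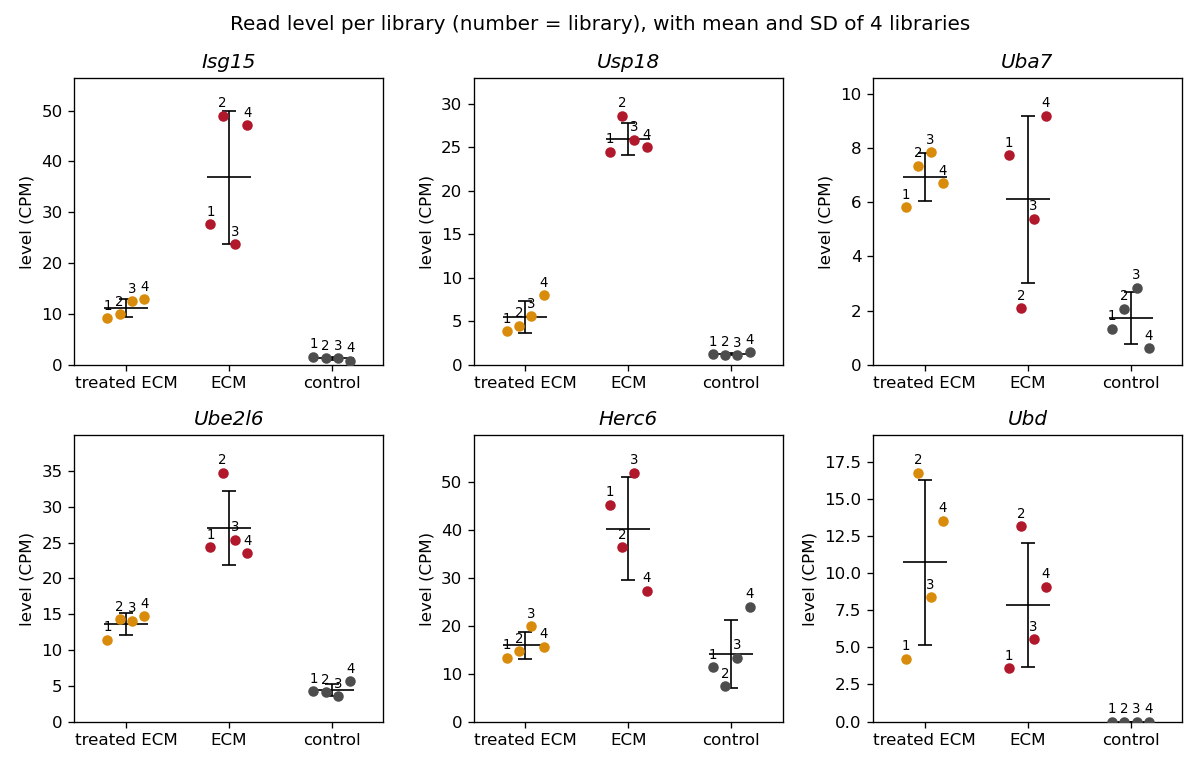
Level of each gene in CPM (y axis, from 0) in each library of treated ECM, ECM and control; points are libraries with their numbers, and bars are the mean and SD of 4 libraries. Isg15, Usp18, Ube2l6 and Herc6 are highest in ECM, while Ubd and Uba7 overlap between treated ECM and ECM, and Ubd is at 0 in every control.

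The members did not rise by equal amounts. Ratios of reads inside a library, which do not depend on library size, were compared with an exact two-sided permutation test. 13 ratios to Isg15 were tested with p-values adjusted over them, and the smallest p that 4 against 4 libraries can give is 0.0286. All 13 share Isg15 and draw on the same 12 libraries, so they are not independent tests. Ratios at the smallest p take the same adjusted p, which depends on how many of the 13 reach it. Relative to Isg15 the ratio was lower in ECM than in control libraries for Ube2l6 (difference of log2 ratios -2.30), Uba7 (-3.07) and Herc6 (-3.31), with no overlap between groups (exact p = 0.0286, adjusted p = 0.0371 for each). Without ECM 2 the Uba7 difference was -2.46. In reads per Isg15 read, Herc6 stood at 1.64, 0.744, 2.19 and 0.582 in ECM libraries, against 7.34, 5.95, 10.8 and 31.9 in controls. Usp18 kept closer to Isg15: its log2 ratio was -0.43 ± 0.49 in ECM and 0.066 ± 0.58 in controls (exact permutation p = 0.257, adjusted p = 0.279).

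Against untreated ECM, treated ECM had lower levels of 4 of the 6 genes, namely Isg15, Usp18, Ube2l6 and Herc6, and none was called higher (0 members by edgeR, 0 at an unadjusted p under 0.05 and 0 by DESeq2). Over all genes, 5.05% were called lower in this comparison, 3.30% higher and 8.35% either way. The groups did not overlap for 4 of the 6 genes, as for 21.9% of all genes. Ubd and Uba7 did not pass the test. The 2 modifiers therefore differed: Isg15 fell while Ubd stayed uncalled, and the ratio between them changed.

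Isg15 read 9.15, 9.96, 12.4 and 12.9 CPM in treated libraries 1 to 4, against 27.6, 49.0, 23.7 and 47.1 CPM in ECM (log2 fold change -1.73 ± 0.26, adjusted p = 0.00231). All treated libraries lay below all ECM libraries. Usp18 showed the largest fall among the 6. It read 3.81, 4.48, 5.58 and 7.98 CPM in treated ECM, against 24.5 to 28.6 CPM in ECM (log2 fold change -2.25 ± 0.22, adjusted p = 0.00021).

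Ube2l6 read 11.4, 14.3, 14.1 and 14.8 CPM in treated ECM, against 23.5 to 34.8 CPM in ECM (log2 fold change -0.99 ± 0.19, adjusted p = 0.00769). Herc6 read 13.3, 14.7, 20.0 and 15.7 CPM in treated ECM, against 27.4 to 52.0 CPM in ECM (log2 fold change -1.34 ± 0.31, adjusted p = 0.0200). Neither gene's groups overlapped. The Herc6 call was lost without treated ECM 1, treated ECM 2 or treated ECM 4 (adjusted p 0.0688, 0.0670 and 0.0578). With the GC correlation of each library as a covariate, chosen after the data were seen, its log2 fold change was -0.81 (adjusted p = 0.0464).

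Ubd had 80, 251, 132 and 214 reads in treated libraries, which are 4.23, 16.8, 8.37 and 13.6 CPM, against 3.61, 13.2, 5.56 and 9.11 CPM in ECM. The groups overlapped over most of their range, with means of 10.7 ± 5.55 CPM in treated ECM and 7.86 ± 4.20 CPM in ECM. The log2 fold change was 0.45 ± 0.47 (95% interval from its standard error -0.48 to 1.38, adjusted p = 0.579), so a fall as large as that of Isg15 lay outside the interval. Uba7 read 5.82, 7.36, 7.86 and 6.72 CPM in treated ECM, against 7.75, 2.09, 5.40 and 9.21 CPM in ECM. Its log2 fold change was 0.18 ± 0.43 (95% interval -0.66 to 1.01, adjusted p = 0.8291). The Uba7 direction turned without ECM 2, to -0.11 (adjusted p = 0.864).

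**Figure D2:**
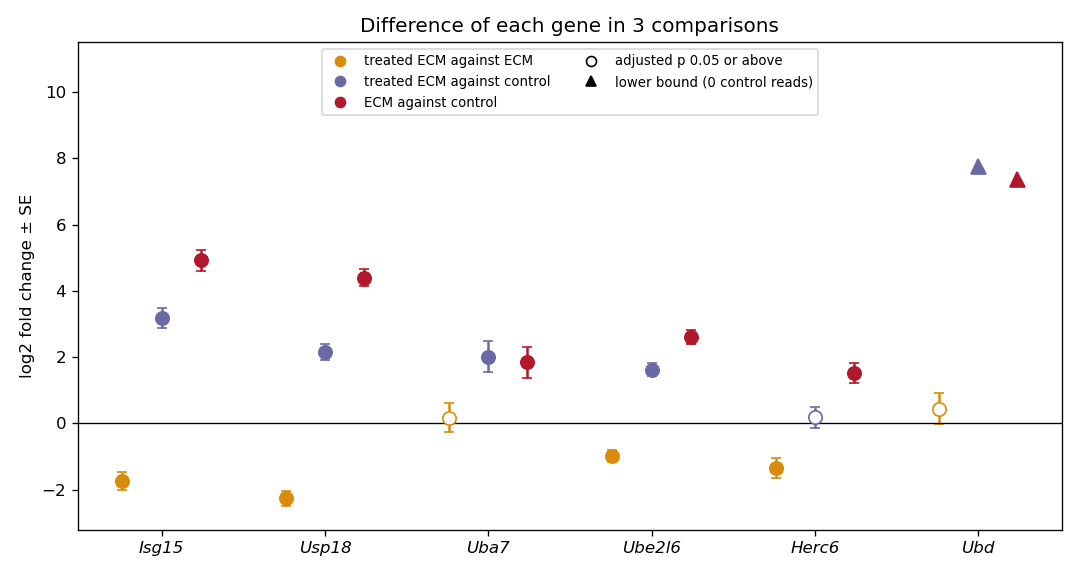
Log2 fold change ± SE (y axis) of each gene (x axis) in treated ECM against ECM, treated ECM against control and ECM against control; open circles did not pass the test, and triangles are lower bounds for Ubd, which had 0 control reads. Isg15, Usp18, Ube2l6 and Herc6 lie below 0 in treated ECM against ECM, while Uba7 (0.18) and Ubd (0.45) lie near or above it.

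The parting of the modifiers held in a direct test on the same libraries. Reads of Ubd per Isg15 read were 0.462, 1.68, 0.673 and 1.05 in treated libraries, against 0.131, 0.269, 0.234 and 0.193 in ECM. Every treated library lay above every ECM library, and the ratio was 4.32-fold higher (difference of log2 ratios 2.11, exact permutation p = 0.0286, the smallest possible, adjusted p = 0.0371). Uba7 per Isg15 read was likewise higher in treated ECM, at 0.636, 0.738, 0.633 and 0.522, against 0.281, 0.0427, 0.227 and 0.196 in ECM (4.13-fold, difference of log2 ratios 2.05, exact permutation p = 0.0286, adjusted p = 0.0371). The size rested partly on ECM 2, which had 27 Uba7 reads: without it the difference of log2 ratios was 1.44.

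For Ube2l6 the ratio to Isg15 was 1.62-fold higher in treated ECM than in ECM (exact permutation p = 0.0286, adjusted p = 0.0371). The Herc6 ratio overlapped between the groups (1.28-fold, exact permutation p = 0.457, adjusted p = 0.457). The Usp18 ratio was 0.645 times that in ECM and also overlapped (exact permutation p = 0.0857, adjusted p = 0.101). In treated ECM against control, however, the Usp18 ratio to Isg15 was lower without overlap, by a difference of log2 ratios of -1.13. The same held for Uba7 (-1.03), Ube2l6 (-1.60) and Herc6 (-2.95), each with exact permutation p = 0.0286 and adjusted p = 0.0371.

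**Figure D3:**
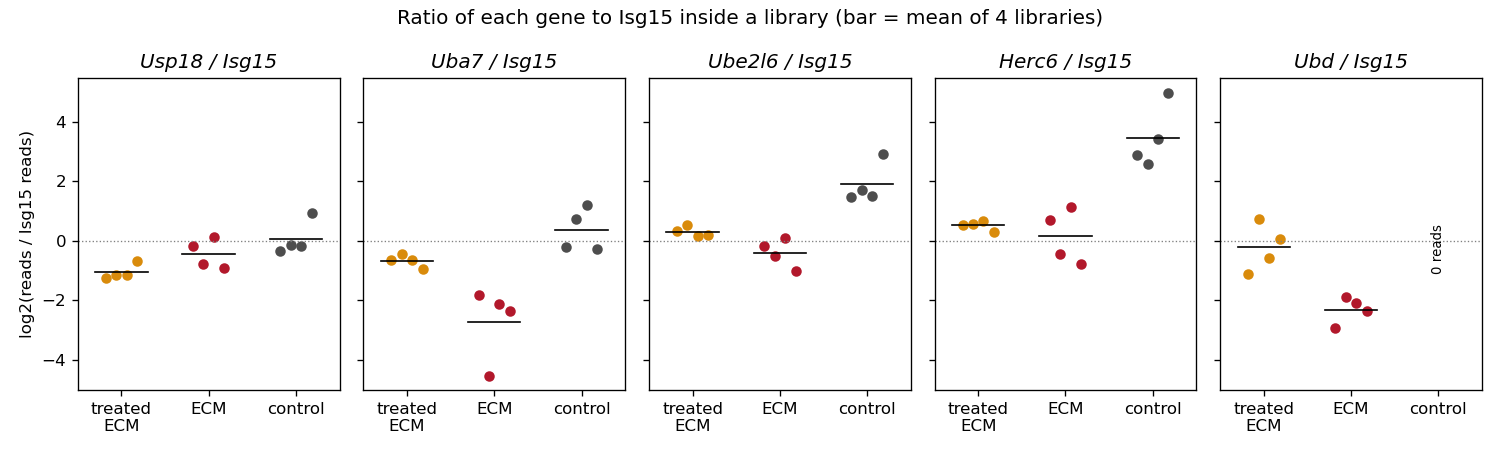
Log2 of the reads of each gene per Isg15 read (y axis) in each library of treated ECM, ECM and control; bars are means of 4 libraries, and the dotted line marks equal reads. Ubd and Uba7 sit higher in all 4 treated libraries than in all 4 ECM libraries, and Ubd has no control value because it had 0 reads there.

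Against control brains, 5 of the 6 genes were still higher in treated ECM, all except Herc6, while 1.99% of all genes were called higher, 0.0548% lower and 2.04% either way. The groups did not overlap for these 5 genes, as for 18.9% of all genes. This comparison shares its control libraries with that of ECM and its treated libraries with that of treated ECM against ECM. Isg15 was 9.14-fold above control (log2 fold change 3.19 ± 0.30, adjusted p = 3.43e-05). Usp18 was 4.45-fold above control (adjusted p = 0.000166) and Ube2l6 3.09-fold (adjusted p = 0.000315). Ubd was at least 218-fold higher against the same floor of 3 control counts (adjusted p = 0.000251). For these 4 genes every treated library lay above every control library.

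Uba7 was 4.05-fold above control in treated ECM (log2 fold change 2.02 ± 0.46, adjusted p = 0.0373). This call was fragile: it was lost without any of treated ECM 1 to 4, ECM 1, or control 1, 2 or 4 (adjusted p 0.0522 to 0.135), and with the GC covariate (log2 fold change 1.48, adjusted p = 0.206). Herc6 averaged 15.9 ± 2.87 CPM in treated ECM and 14.0 ± 7.07 CPM in controls, and its groups overlapped. Its log2 fold change was 0.18 ± 0.31 (95% interval -0.42 to 0.79, adjusted p = 0.793), and turned to -0.028 without control 2. It was 0.57 (adjusted p = 0.223) without control 4, ECM 2 and ECM 3, and 0.79 (adjusted p = 0.206) with the GC covariate. Herc6 passed the test in none of these fits.

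As a description, the treated against control log2 fold change was set as a percentage of that of ECM against control. It was 64.8% for Isg15, 62.3% for Ube2l6 and 48.9% for Usp18. It was 11.98% for Herc6, with a range of -2.12 to 29.9% when 1 library was left out, and 109.5% for Uba7, with a range of 94.7 to 128.6%. Other fits went outside these ranges. With the GC covariate the log2 fold changes of Herc6 were 0.79 in treated ECM and 1.60 in ECM, each against control. Those of Uba7 were 1.48 and 1.82. Without control 4, ECM 2 and ECM 3 they were 0.57 and 1.76 for Herc6, and 1.75 and 2.05 for Uba7. In both fits the percentage lay above its range for Herc6 and below it for Uba7. No such percentage exists for Ubd, which had no control reads.

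Levels of different genes can be set side by side only per length, which the authors' deposited FPKM allow. In ECM, Isg15 was highest at 47.5 ± 17.9 FPKM, above Ube2l6 (16.7 ± 2.87) and Usp18 (14.2 ± 0.906), whose libraries overlapped. Ubd (8.16 ± 4.34 FPKM) overlapped both Usp18 and Herc6 (8.11 ± 1.86 FPKM), and Uba7 was lowest at 1.88 ± 1.04 FPKM. In treated ECM, Isg15 (15.2 ± 2.49 FPKM) and Ubd (11.996 ± 6.31 FPKM) overlapped at the top. Ube2l6 (9.07 ± 1.05 FPKM) lay inside the range of Ubd, which ran from 4.67 to 18.9 FPKM, and below all Isg15 libraries. Herc6 (3.46 ± 0.603), Usp18 (3.20 ± 1.08) and Uba7 (2.25 ± 0.287) came lowest, each overlapping its neighbour. In controls Herc6 (2.89 ± 1.29 FPKM) overlapped both Ube2l6 (2.80 ± 0.422 FPKM) and Isg15 (1.60 ± 0.490 FPKM), and Ube2l6 lay above Isg15 without overlap. Usp18 (0.685 ± 0.0534 FPKM) and Uba7 (0.545 ± 0.314 FPKM) overlapped below them, and Ubd was listed at 0.

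Uba7 and Herc6 differ in GC content, and the libraries differ in their GC correlation. The longest Uba7 transcript has 54.8% GC, above 75.6% of the genes compared, and that of Herc6 39.4%, above only 4.55%. Within ECM, Uba7 was lowest in ECM 2 and highest in ECM 4, and Herc6 lowest in ECM 4 and highest in ECM 3. Within controls, control 4 had the lowest Uba7 (0.615 CPM) and the highest Herc6 (23.99 CPM). For Uba7 the order of levels departed in places from that of the correlation. ECM 3, not ECM 2, had the lowest correlation in ECM. Uba7 was highest among controls in control 3 (2.85 CPM), whose correlation was below that of control 1 and control 2. In each group Herc6 was highest in the library with the lowest correlation, namely ECM 3, control 4 and treated ECM 3. Its lowest level fell in the library with the highest correlation in ECM only. The part of GC content in these results was not tested beyond the covariate fit. Without control 4, ECM 2 and ECM 3 the ECM against control log2 fold changes were 2.05 for Uba7 and 1.76 for Herc6, both called (adjusted p 0.000733 and 0.00148).

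**Figure D4:**
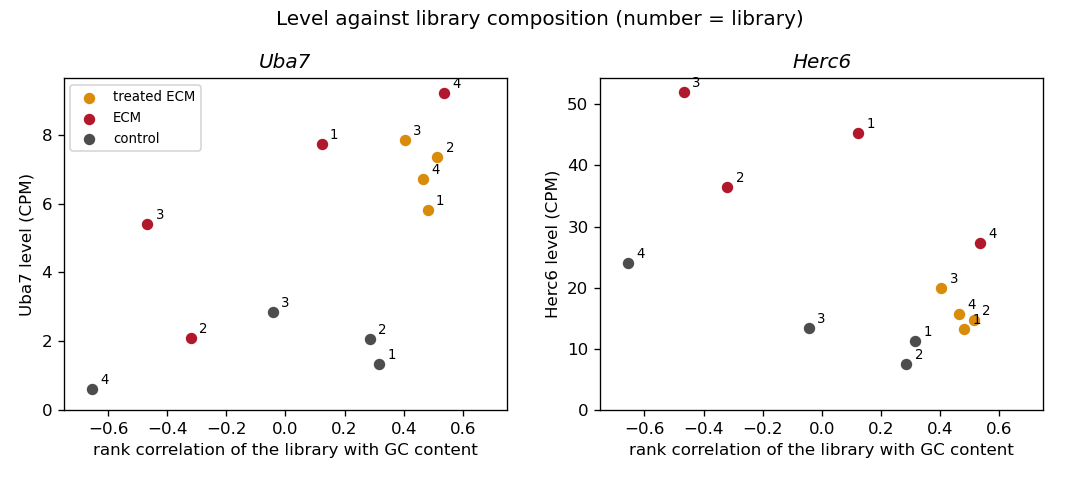
Level of Uba7 (left) and Herc6 (right) in CPM (y axes) against the rank correlation of each library with the GC content of genes (x axis), with library numbers beside the points of treated ECM, ECM and control. Control 4, at -0.66, has the lowest Uba7 and the highest Herc6 of the controls, and the treated libraries lie together at 0.40 to 0.51.

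Some other parts of the Isg15 and Ubd systems also changed. Of 14 listed genes 13 were tested. In ECM against control 3 were higher and 2 lower, with a median log2 fold change of 0.25 (all genes -0.024). Over all genes 7.00% were higher and 3.27% lower. Trim25, a ubiquitin and Isg15 ligase, rose to 30.7 ± 4.73 CPM in ECM, against 8.44 ± 0.787 CPM in controls (log2 fold change 1.86 ± 0.19, adjusted p = 2.05e-05). Itgal and Itgb2, the chains of the leukocyte integrin LFA-1, which binds extracellular Isg15, rose by log2 4.17 ± 0.44 and 2.55 ± 0.21 (adjusted p 3.20e-05 and 3.41e-06). Uba6, the activating enzyme for Ubd, went the other way, at 19.0 ± 3.10 CPM in ECM and 37.2 ± 11.4 CPM in controls (log2 fold change -0.97 ± 0.21, adjusted p = 0.00769). Sqstm1, an autophagy receptor that binds Ubd, and Arih1, a ligase, did not pass (adjusted p 0.283 and 0.863). The other lower gene, named after its values were seen, was Usp21.

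Over all genes, 5.05% were lower and 3.30% higher in treated ECM against ECM. Of the 13 tested genes of this list, 3 were lower and 1 higher there (median -0.20, all genes 0.011). Outside the naming rule these include Usp16 (lower) and Usp21 (higher). Trim25 fell to 13.5 ± 2.75 CPM in treated ECM (log2 fold change -1.19 ± 0.18, adjusted p = 0.00247) and Itgb2 to 14.3 ± 3.43 CPM, against 33.5 ± 1.55 CPM in ECM (adjusted p = 0.00307). Itgal did not pass (log2 fold change -1.02 ± 0.38, adjusted p = 0.109), nor did Uba6 (0.67 ± 0.20, adjusted p = 0.0595). In treated ECM against control, 2 of 13 were higher, Itgal and Itgb2, and 0 lower (median -0.021, all genes 0.0041). Over all genes 1.99% were higher and 0.0548% lower.

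Some interferon signalling genes changed. The list was chosen with earlier results of these data known. In ECM against control 7 of 13 tested genes were higher, 0 lower and 6 not called (median log2 fold change 0.88). Over all genes 7.00% were higher and 3.27% lower (median -0.024). In treated ECM against ECM 5 were lower and 0 higher (median -0.38), where 5.05% of all genes were lower and 3.30% higher (median 0.011). In treated ECM against control 5 were higher and 0 lower (median 0.37), where 1.99% of all genes were higher and 0.0548% lower (median 0.0041). Irf7, a transcription factor of type I interferon responses, averaged 20.4 ± 4.55 CPM in treated ECM, 62.6 ± 7.34 CPM in ECM and 2.55 ± 0.601 CPM in controls. It fell against ECM (log2 fold change -1.62 ± 0.20, adjusted p = 0.000723). Irf1, a factor that interferon-gamma induces strongly, averaged 34.5 ± 6.99, 31.5 ± 1.69 and 3.95 ± 0.762 CPM in the same groups, and its treated ECM against ECM log2 fold change was 0.13 ± 0.18 (adjusted p = 0.684). The difference between Irf1 and Irf7 was not tested.

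Stat2, Irf9 and Ifngr1, named after their values were seen, were also lower in treated ECM against ECM (adjusted p 0.00512, 0.00183 and 0.00537). Ifng had 0 control reads and averaged 1.33 ± 0.643 CPM in treated ECM and 2.71 ± 1.32 CPM in ECM (adjusted p = 0.202). Jak1 and Jak2, kinases of the receptors, did not pass in ECM against control (adjusted p 0.542 and 0.995). Ifnb1 had too few reads to be tested.

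Ubiquitin and the modifiers outside these systems showed no called change. Of 16 other ubiquitin and ubiquitin-like genes, among them the ubiquitin gene Ubb and Ubl3, 0 were called in any of the 3 comparisons by edgeR, with log2 fold changes in ECM against control from -0.31 to 0.89. Of 9 other activating enzymes and subunits, 1 was lower in ECM against control, Uba6, which the preceding list also holds, and 1 was lower in treated ECM against ECM, Nae1. The ubiquitin-activating enzyme gene Uba1 averaged 387 ± 24.3 CPM in ECM and 351 ± 19.8 CPM in controls (adjusted p = 0.531), and Uba2 did not pass (adjusted p = 0.931). Of 12 relatives of the Herc, Usp and Ube2l families 1 was lower in ECM, the deubiquitinase gene Usp28 (log2 fold change -0.83 ± 0.22, adjusted p = 0.0241). The large Herc1 and Herc2 genes did not pass (adjusted p 0.764 and 0.659). Over all genes, 10.3% were called either way in ECM against control, 8.35% in treated ECM against ECM and 2.04% in treated ECM against control. At these shares lists this short would hold few called genes, so their counts do not set them apart from other genes.

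**Figure D5:**
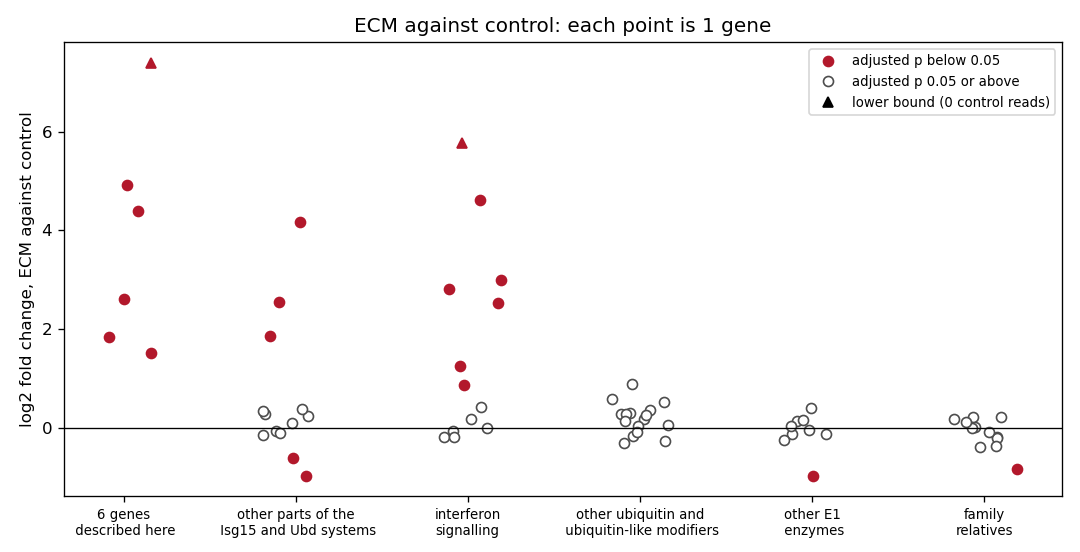
Log2 fold change in ECM against control (y axis) of each gene in the 6 examined here and in 5 lists of related genes (x axis); filled points passed the test, open points did not, and triangles are lower bounds for genes with 0 control reads. All 6 genes and 7 interferon signalling genes lie above 0 as filled points, while all 16 other modifiers are open.

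Summed T and NK cell, monocyte, endothelial and astrocyte markers were highest in ECM, as Isg15, Usp18, Ube2l6 and Herc6 were. Summed levels of 8 T and NK cell markers ran from 19.0 to 41.8 CPM in treated ECM, 75.3 to 152 CPM in ECM and 7.04 to 12.8 CPM in controls. The 5 monocyte and macrophage markers ran from 14.8 to 29.3, 78.97 to 218 and 5.13 to 8.54 CPM in the same groups. Of the T and NK cell markers 7 were tested, with 6 higher in ECM against control and 5 lower in treated ECM against ECM, and of the monocyte markers 4 of 5 changed each way. Ncr1 was at 0 in controls. The 4 endothelial markers ran from 144 to 178 CPM in treated ECM, 268 to 316 CPM in ECM and 120 to 164 CPM in controls. Of these 3 were called higher in ECM against control and 2 lower in treated ECM against ECM. The 4 astrocyte markers ran from 1468 to 1694 CPM in treated ECM, 2118 to 2945 CPM in ECM and 1466 to 1811 CPM in controls, with 1 called higher in ECM against control and 1 lower in treated ECM against ECM. The 4 neutrophil markers ran from 2.06 to 3.42 CPM in treated ECM, 1.65 to 4.26 CPM in ECM and 0.125 to 0.365 CPM in controls, with Ly6g at 0 in all groups. Of these 2 were tested, and both were higher in each comparison with control and neither was called in treated ECM against ECM. The 3 erythroid markers ran from 12.3 to 77.0 CPM in treated ECM, 0 to 0.677 CPM in ECM and 10.7 to 42.9 CPM in controls. The 5 microglial markers ran from 240.2 to 352 CPM in treated ECM, 231 to 346 CPM in ECM and 288 to 317 CPM in controls. In ECM against control 1 of these 5 was called lower, and 1 of the 4 oligodendrocyte markers higher. Over all genes, 7.00% were called higher and 3.27% lower in ECM against control. In treated ECM against ECM 5.05% were called lower, and in treated ECM against control 1.99% higher. The part of these cell types in the results was not tested.

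Likeness to other genes was measured as the root mean square difference of log2 CPM, each gene centred on its own mean over the 12 libraries, among 13605 genes. The nearest to Isg15 were Lat (0.35), Irgm1 (0.37) and Bst2 (0.38), where the median gene lay at 2.05, and Usp18 lay at 0.59. Nearest to Usp18 were Cd2 (0.27), Lat (0.36) and Ifit3 (0.38), and nearest to Ube2l6 were Irf9 (0.26), Lcp2 (0.29) and Trim34a (0.30). Herc6 lay nearest to Fkbp5 (0.28), Itga4 (0.29) and Tagap (0.30). Some of these genes were near 0 in controls. Lat averaged 5.37 ± 1.25 CPM in ECM and 0.0933 ± 0.0273 CPM in controls, and Cd2 3.37 ± 0.698 and 0.0304 ± 0.0357 CPM. The prior count shrinks differences at such control levels, so a small distance there does not mean an equal fold change.

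The nearest genes to Ubd were Cxcl11 (0.58), Gbp2 (0.60) and Lcn2 (0.67), against a median of 2.93, while Isg15 was at 1.39 from it. Ubd had 0 control reads, so the prior count sets part of these distances. Cxcl11 averaged 5.44 ± 1.82 CPM in treated ECM, 4.72 ± 2.91 CPM in ECM and 0.0133 ± 0.0267 CPM in controls. Gbp2, a guanylate-binding protein gene induced by interferon-gamma, averaged 204 ± 58.6 CPM in treated ECM, 247 ± 101 CPM in ECM and 4.70 ± 0.560 CPM in controls. Lcn2, an iron-siderophore carrier gene of reactive astrocytes, averaged 44.3 ± 25.99, 48.5 ± 30.7 and 0.380 ± 0.163 CPM in these groups. Nearest to Uba7 were Jak3 (0.46), Ccdc88b (0.49) and Il4ra (0.51). Of the distances to the nearest gene, those of Ubd and Uba7 were the largest among the 6.

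The authors' deposited tables list 6 of the 6 genes for ECM against control, 4 for treated ECM against ECM and 5 for treated ECM against control. Ubd and Uba7 are the members that the table for treated ECM against ECM lacks, and Herc6 is the one that the table for treated ECM against control lacks. In the authors' deposited table the log2 fold change of Isg15 was 4.95 in ECM against control and -1.75 in treated ECM against ECM.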

How the data were processed

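Brain RNA was sequenced in 12 libraries. Per the submitters' processing notes reads were handled by the authors with HTSeq, STAR, FastQC and Trimmomatic (build mm10; versions not given). Per the file headers, the authors deposited whole read counts per gene, and 3 comparison tables with a log2 fold change, p-value, normalized signal and FPKM, whose tool and gene lengths are not given. The comparison tables hold only genes past a 2-fold change at an unadjusted p below 0.05, as tested on the files. No signal value was used. Long names displaced the values of 2212 genes in the deposited counts.

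Displaced values were put back. In treated ECM 4 they differed from the authors' tables (77 of 85 genes in 1 table, 32 of 33 in another), so displaced genes were fitted with 11 libraries instead of the planned 12. None of the 6 genes is among them. 26 names turned into dates were left out.

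Counts were TMM-scaled, filtered with filterByExpr and tested with edgeR 4.0.16 (R 4.3.3) in 1 quasi-likelihood model of 3 group means, adjusted by Benjamini-Hochberg over 14599 genes and called below 0.05. Standard errors are the log2 fold change over the root of F. On simulated counts for ECM against control (13772 genes), it called 39 of 100 genes changed by log2 1, 94 of 100 changed by log2 2 and 6 unchanged ones. Genes were simulated independently, without the GC-linked deviations that genes of a real library share. The 6 therefore do not measure false calls in the real counts. DESeq2 1.42.0, limma 3.58.1, scipy 1.17.1, BLAST 2.17.0 and RefSeq promoters were also used. Coordinates are from GENCODE M21. Likeness used a prior count of 2. The members and lists were chosen with earlier results of these data known. From each list up to 3 called genes with the largest change in ECM against control and up to 2 uncalled ones with the highest level were named. Alternatives were DESeq2 and its size factors, no filter on low counts, the 2 groups compared alone, a replicate block, each library left out, 3 libraries left out together and, chosen after seeing the data, a GC covariate. Some values of single genes are not reported here.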

Additional observations from a re-analysis of the deposited data

Results flagged for a closer look

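The Ube2l6 level in ECM 2, 34.8 CPM, stood apart from the other 3 ECM libraries, which read 23.5 to 25.4 CPM. Its gap to the nearest library was a larger part of the group's range than the 95% limit for 4 samples. 17 groups of 4 were examined in this way, and chance flags about 1 in 20.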

How the results depend on the processing

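In the 19 alternative fits the number of members called was 5 or 6 higher in ECM against control, 3 or 4 lower in treated ECM against ECM, and 4 or 5 higher in treated ECM against control. Isg15, Usp18, Ube2l6 and the Ubd bounds kept direction and call in all of them. The Uba7 difference between treated ECM and ECM, uncalled throughout, turned to -0.30 without control 4, ECM 2 and ECM 3, to -0.34 with the GC covariate and to -0.11 without ECM 2, with 0.45 as the highest value when 1 library was left out. That of Herc6 between treated ECM and control turned to -0.028 without control 2 (0.57 at most when 1 library was left out, 0.79 with the GC covariate), and its share remaining to -0.0212. The cause was not tested. Omitting 1 library at a time gave Uba7 a log2 fold change of 1.57 to 2.18 in ECM against control and 1.75 to 2.36 in treated ECM against control, and Herc6 -1.49 to -1.20 in treated ECM against ECM. No ratio to Isg15 changed sign with 0.5 counts added or a library left out. Those of Uba7 moved by over 1.5 times without ECM 2, to 1.44 in treated ECM against ECM and -2.46 in ECM against control, and the log2 bound of Ubd in ECM against control was 6.80, against 7.39 as reported, without control 4, ECM 2 and ECM 3. Designs of 3 against 4 cannot pass the test.

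Replicate numbers did not pair the libraries (correlations of same-numbered deviations -0.61 to 0.30; 1, 0 and 1 of 4 libraries were closest to their own number in the 3 comparisons). With the replicate block 5, 4 and 4 members were called, Uba7 being lost in both comparisons with control (log2 1.84 and 2.04, adjusted p 0.0700 and 0.121). Over all genes, calls ranged from 867 to 2784 for ECM against control (1499 as reported), 539 to 2273 for treated ECM against ECM (1219) and 219 to 469 for treated ECM against control (298). Control reads summed to 0 for Ubd, which is therefore given as a bound, to 77 each for Isg15 and Usp18, and to 106 for Uba7.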

Other observations

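Enzymes of the related systems outside the named genes, chosen after their values were seen, also differed. Usp21, a deubiquitinase reported to act on Isg15, was lower in ECM than in control (log2 fold change -0.62 ± 0.18, adjusted p = 0.0478) and higher in treated ECM than in ECM (0.87 ± 0.18, adjusted p = 0.0119). Usp16, another deubiquitinase, was lower in treated ECM than in ECM (-0.74 ± 0.21, adjusted p = 0.0432), as was Nae1, a subunit of the activating enzyme for Nedd8 (-0.95 ± 0.25, adjusted p = 0.0354).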
